A study of Homo sapiens with 19 samples.

Results

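The mRNAs of 35 aminoacyl-tRNA synthetases were followed in whole cells and fractions of K562, a human leukaemia line. They were chosen by name, 19 genes for cytosolic enzymes and 16 for mitochondrial enzymes, out of 58051 human genes in the count tables, and all 35 passed the filter on low counts. The 5 groups were whole cells, cytoplasm, nuclear wash and nucleus with 4 libraries each, and the nuclear wash prepared again with the rRNA depletion step left out, with 3 libraries. All came from untreated cells of the same line, and every library other than those 3 was depleted of rRNA. The labels do not describe how the wash was taken, and they do not say whether the replicates were grown separately. The p-values therefore reflect how these libraries vary, and that variation may be technical. The libraries pool many cells, so a change in the number of cells that hold an mRNA and a change in its amount per cell cannot be told apart.

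An aminoacyl-tRNA synthetase joins an amino acid to the tRNAs that carry its anticodon. Human cells keep separate sets of these enzymes for translation in the cytosol and for translation inside mitochondria. Both sets are encoded in the nucleus, and the mitochondrial enzymes are made in the cytoplasm and imported by an N-terminal targeting peptide that is typically rich in arginine and poor in acidic residues. The mitochondrial set carries the suffix 2. GARS1 (glycine) and KARS1 (lysine) are exceptions, since each single gene encodes both the cytosolic and the mitochondrial enzyme.

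The opening 40 codons show how the classes differ at the sequence level. They are given for isoleucine and leucine, the amino acids whose cytosolic and mitochondrial mRNAs differed most between wash and cytoplasm, and for the shared genes GARS1 and KARS1. Each line is the start of the annotated coding sequence (GENCODE release 29, GRCh38), 5′ to 3′, with arginine codons in capitals.
IARS1: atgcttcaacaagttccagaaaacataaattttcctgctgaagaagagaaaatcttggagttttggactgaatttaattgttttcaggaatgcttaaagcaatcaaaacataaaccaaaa
IARS2: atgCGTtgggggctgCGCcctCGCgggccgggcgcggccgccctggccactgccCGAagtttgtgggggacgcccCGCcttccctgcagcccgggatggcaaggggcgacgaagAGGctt
LARS1: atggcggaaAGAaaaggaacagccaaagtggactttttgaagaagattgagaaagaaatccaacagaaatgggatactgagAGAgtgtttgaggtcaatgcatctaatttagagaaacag
LARS2: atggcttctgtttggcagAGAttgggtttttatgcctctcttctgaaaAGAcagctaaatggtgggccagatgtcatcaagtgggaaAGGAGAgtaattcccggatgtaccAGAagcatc
GARS1: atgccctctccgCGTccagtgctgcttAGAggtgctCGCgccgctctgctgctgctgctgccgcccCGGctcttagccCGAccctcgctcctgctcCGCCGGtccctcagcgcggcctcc
KARS1: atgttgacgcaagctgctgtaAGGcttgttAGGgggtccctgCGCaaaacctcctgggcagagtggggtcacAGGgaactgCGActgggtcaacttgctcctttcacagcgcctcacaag

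Over these 40 codons the cytosolic members held a median of 2 arginine and 7 acidic codons, and the mitochondrial members 5 arginine and 1 acidic codon. IARS1 had 0 arginine and 7 acidic codons, against 6 and 0 in IARS2. LARS1 had 2 and 8, against 5 and 2 in LARS2. GARS1, with 7 arginine and 0 acidic codons, and KARS1, with 5 and 2, resembled the mitochondrial genes in this stretch, as the annotated transcripts used here start with the targeting peptide. On GRCh38 the genes lie at chr9:92210207-92293756 (IARS1, minus strand), chr1:220094102-220148041 (IARS2, plus strand), chr5:146113038-146182660 (LARS1, minus strand), chr3:45388506-45549421 (LARS2, plus strand), chr7:30594681-30634033 (GARS1, plus strand) and chr16:75627474-75648643 (KARS1, minus strand). All counts used here fall on exons of these genes unless gene-body counts are named.

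The depth of the depleted libraries was 1373755 to 7955415 exon counts, and that of the undepleted ones 923464 to 1801293. Landmarks of the compartments separated the fractions. MALAT1, a nuclear speckle RNA, was at 50042 to 70127 CPM (exon counts scaled to a common library size) in the nucleus and 2545 to 3391 in the cytoplasm, and GAPDH mRNA was at 129 to 144 and 1696 to 2188. The 7 erythroid markers of K562 summed to 1320 to 5041 CPM in the depleted libraries, and hepatocyte markers to at most 0.357. In the wash, epithelial markers summed to 125.4 to 180.3 CPM, against 48.2 to 66.7 in the cytoplasm, and fibroblast and endothelial markers to 69.1 to 75.7 against 16.9 to 18.5. Column names split the libraries into prefix 1 (replicates 1 and 2) and prefix 2 (replicates 3 and 4), and the labels do not say what the prefix stands for. The wash libraries stood apart by prefix, with MALAT1 at 21535 and 15733 CPM in prefix 1 and 5032 and 4776 in prefix 2. Folds within a prefix are given where a call of exon counts in the 3 comparisons among the fractions changed there.

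In whole cells the cytosolic members were the more abundant class. Per kilobase of exon, EPRS1 (glutamate and proline) was highest at 158 ± 14.2 CPM per kb (SD, n = 4), followed by GARS1 at 116.7 ± 33.4, AARS1 (alanine) at 91.3 ± 26.3, TARS1 (threonine) at 70.9 ± 7.17, IARS1 at 68.4 ± 5.12 and NARS1 (asparagine) at 66.1 ± 4.49. Neighbours from GARS1 to NARS1 in that order lay within their spread. IARS2 ranked 7, the highest mitochondrial member, at 54.1 ± 3.98 CPM per kb, beside KARS1 at 52.9 ± 2.13 and SARS1 (serine) at 52.4 ± 10.5, from which it did not differ beyond the spread. The next mitochondrial member, RARS2 (arginine), was at 27.3 ± 2.32 and ranked 18. HARS1 (histidine) was the lowest cytosolic member at 6.77 ± 0.306, rank 27, and SARS2 was the lowest of all at 1.44 ± 0.334, rank 35. Exons of SARS2 (1492 bases), VARS2 (1858) and HARS2 (152) overlap another gene on the same strand. Smaller overlaps, of 61 to 66 bases with microRNA genes, are annotated for TARS2, MARS1 and QARS1. The counting rule for shared reads is not given in the sources used here. Levels and folds are therefore uncertain, most for SARS2, VARS2 and HARS2.

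As a share of exon counts, the 19 cytosolic members took 0.562% ± 0.0831 in whole cells, 0.547% ± 0.0704 in cytoplasm, 0.519% ± 0.0589 in wash and 0.483% ± 0.122 in nucleus (SD, n = 4 each). These groups overlapped. The 16 mitochondrial members took 0.0683% ± 0.000923 in whole cells, 0.0482% ± 0.00266 in cytoplasm, 0.1205% ± 0.0125 in wash and 0.0972% ± 0.0055 in nucleus. Here no library of one fraction overlapped with those of another. As a difference of levels, the median log2 CPM of cytosolic members exceeded that of mitochondrial members by 3.75 ± 0.156 in cytoplasm, 3.12 ± 0.362 in wash, 3.07 ± 0.16 in whole cells and 2.58 ± 0.22 in nucleus. The cytoplasm had the widest mean distance between the classes, also as a ratio of summed counts. The narrowest mean depended on the measure, and wash and nucleus libraries overlapped in both. The log2 ratio of the summed counts was 2.11 ± 0.20 in wash and 2.28 ± 0.291 in nucleus, against 3.497 ± 0.19 in cytoplasm.

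The comparison of nucleus with cytoplasm asks how the mRNAs divide between these compartments. Most cytosolic members were lower in the nucleus: 14 of 19 fell and 1 rose, with a median log2 fold change of -0.95. Mitochondrial members split, with 5 of 16 higher and 7 lower and a median of -0.28, whose direction turned with no composition factor in the scaling (0.333) and with gene-body counts (0.317). Over all 15940 genes tested, 39.3% were called higher and 37.5% lower, 76.8% together, with a median of 0.025 (edgeR quasi-likelihood test, Benjamini-Hochberg adjusted p under 0.05). All folds are relative to the typical gene, which the scaling sets near no change. Groups did not overlap for 13 cytosolic and 10 mitochondrial members, against 71.4% of all genes.

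KARS1, for lysine, had the largest fall among cytosolic members. It was at 334, 310, 320 and 313 CPM in the cytoplasm and 72.2, 73.5, 71.5 and 72.6 in the nucleus. The nuclear libraries lay close together and far below the cytoplasmic ones, 4.402-fold lower (log2 fold change -2.14, SE 0.10, edgeR adjusted p = 1.57e-13). FARSA and FARSB encode the paired subunits of the cytosolic phenylalanine enzyme. FARSA went from 140, 147, 130 and 131 CPM to 28.7, 36.4, 31.8 and 29.1, a log2 fold change of -2.11 (SE 0.148, edgeR adjusted p = 4.8e-11). FARSB went from 215, 197, 201 and 194 to 72.6, 76.6, 53.6 and 67.4, a log2 fold change of -1.58 (SE 0.119, edgeR adjusted p = 1.43e-10). Neither subunit had overlapping groups, and both were over 2.9-fold lower in the nucleus (4.33-fold and 2.99-fold).

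HARS1 was the cytosolic member called higher in the edgeR fit. It was at 45.4, 49.6, 57.1 and 57.0 CPM in the cytoplasm and 66.3, 70.4, 75.6 and 57.6 in the nucleus. It rose by a log2 fold change of 0.37 (SE 0.136, edgeR adjusted p = 0.0166), but the call was lost without cytoplasm replicate 1 (adjusted p = 0.0582) or replicate 2 (adjusted p = 0.0664) and within prefix 2 (0.254, adjusted p = 0.141), as well as with no filter on low counts (0.226, adjusted p = 0.254), and the direction turned with gene-body counts (-0.156). Overlaps of its exons with genes on the opposite strand total 658 bases, which makes its count uncertain because the strand setting is not given. The same holds for other members, among them MARS1 (874 bases), WARS1 (672), AARS2 (470), YARS1 (396), EARS2 (370) and CARS2 (326). The 4 cytosolic members that were not called were MARS1 (methionine) at -0.27, IARS1 at -0.16, LARS1 at 0.12 and CARS1 (cysteine) at 0.16. DESeq2 called LARS1 higher (0.255, DESeq2 adjusted p = 0.016), while gene-body counts turned it to -0.306. Of the members called lower, WARS1 lost its call with DESeq2 (-0.912, DESeq2 adjusted p = 0.0834). AARS1 lost its call without nucleus replicate 1 (edgeR adjusted p = 0.0573) or replicate 2 (edgeR adjusted p = 0.0616). Blocking on the replicate number, MARS1 fell by 0.31 (edgeR adjusted p = 0.0219) and mitochondrial MARS2 fell by 0.49 (edgeR adjusted p = 0.0192). Within prefix 1 IARS1 (-0.417, edgeR adjusted p = 0.02) and MARS1 (-0.493, edgeR adjusted p = 0.00394) were called lower.

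Among mitochondrial members, LARS2 rose most. It was at 23.8, 18.05, 20.6 and 23.0 CPM in the cytoplasm and 64.6, 68.7, 72.6 and 75.2 in the nucleus, 3.30-fold higher (log2 fold change 1.72, SE 0.119, edgeR adjusted p = 4.19e-11). VARS2 (valine) went from 20.6, 18.05, 24.3 and 22.0 to 49.3, 56.7, 54.1 and 54.5, a log2 fold change of 1.34 (SE 0.145, edgeR adjusted p = 3.92e-08). AARS2 went from 22.4, 21.1, 17.2 and 16.1 to 46.6, 44.7, 47.9 and 52.9, a log2 fold change of 1.32 (SE 0.146, edgeR adjusted p = 5.07e-08). All 3 had nuclear libraries above every cytoplasmic one. The other members called higher were CARS2, with a log2 fold change of 1.18, and IARS2, with 1.08. Gene-body counts add intronic reads, but for HARS2, whose exons overlap another gene, they fell below the exon counts in some libraries. With gene-body counts the calls for IARS2 (0.0415, edgeR adjusted p = 0.733) and VARS2 (-0.0295, edgeR adjusted p = 0.869) were lost. VARS2 also overlaps another gene, so its gene-body fold is uncertain.

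PARS2 (proline) fell most, from 14.9, 11.5, 15.3 and 12.2 CPM to 0.897, 1.72, 3.26 and 3.11. The nuclear values rest on 2 to 12 exon counts per library, yet every one lay below the cytoplasm, 5.77-fold lower (log2 fold change -2.53, SE 0.274, edgeR adjusted p = 3.84e-08). WARS2 (tryptophan) went from 34.7, 33.9, 39.1 and 34.4 to 15.7, 12.4, 16.045 and 14.0, a log2 fold change of -1.29 (SE 0.156, edgeR adjusted p = 2.01e-07). EARS2 (glutamate) went from 45.6, 45.8, 39.7 and 37.9 to 19.3, 22.0, 20.7 and 21.8, a log2 fold change of -1.01 (SE 0.126, edgeR adjusted p = 2.75e-07). None of these 3 had overlapping groups. With gene-body counts the direction turned for WARS2 (0.769), FARS2 (phenylalanine, 2.72 against -0.90) and NARS2 (1.48 against -0.40). Mitochondrial members that were not called were MARS2, RARS2, SARS2 and TARS2. Within prefix 2 MARS2 was called lower (-0.868, edgeR adjusted p = 0.00871), and the calls for HARS2 (-0.193, adjusted p = 0.386), NARS2 (-0.178, adjusted p = 0.347) and YARS2 (-0.483, adjusted p = 0.064) were lost. DESeq2 also dropped the calls of HARS2 (-0.184, DESeq2 adjusted p = 0.28) and NARS2 (-0.26, DESeq2 adjusted p = 0.0892). HARS2 lost its call in 5 of 8 fits that left out 1 library, and NARS2 without nucleus replicate 1 (edgeR adjusted p = 0.0677).

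Nuclear wash was then compared with cytoplasm. Of the mitochondrial members 7 of 16 rose and 3 fell, whereas of the cytosolic members 0 of 19 rose and 3 fell. Among all genes tested 22.8% were called higher and 21.4% lower, 44.2% in either direction. At an unadjusted p under 0.05 the edgeR test also had 0 cytosolic members higher, and so did DESeq2 with its adjusted p. Other settings called 1 cytosolic member or more higher: AARS1 with no filter on low counts (0.399, edgeR adjusted p = 0.029), with the replicate block and within prefix 2 (0.31, edgeR adjusted p = 0.034), MARS1 within prefix 2 (0.414, edgeR adjusted p = 0.0105) and LARS1 within prefix 1. Medians of the log2 fold changes were 0.16 for mitochondrial members, 0.015 for cytosolic ones and 0.048 for all genes, so the class medians differed little while single mitochondrial members rose. Groups did not overlap for 10 mitochondrial and 4 cytosolic members, against 38.2% of all genes. The cytoplasm libraries are shared with the comparison above.

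LARS2 and IARS2 stood out in the wash. LARS2, at 23.8, 18.05, 20.6 and 23.0 CPM in the cytoplasm, was at 147, 147, 152 and 142 in the wash, 6.91-fold higher (log2 fold change 2.79, SE 0.119, edgeR adjusted p = 5.09e-13). IARS2 went from 129, 113, 156 and 157 to 751, 905, 844 and 744, 5.85-fold higher (log2 fold change 2.55, SE 0.128, edgeR adjusted p = 8.1e-12). Within the prefixes LARS2 differed by 2.82 and 2.76 and IARS2 by 2.77 and 2.34 on the log2 scale. AARS2 was at 49.7, 60.5, 73.8 and 74.5 CPM in the wash, 3.39-fold above the cytoplasm (log2 fold change 1.76, SE 0.141, edgeR adjusted p = 5.68e-09), and its fold depended on the prefix, as described further on. The other mitochondrial members called higher were VARS2 at 1.39, TARS2 at 0.77, MARS2 at 0.72 and NARS2 at 0.50 on the log2 scale. MARS2 lost its call without cytoplasm replicate 3 (adjusted p = 0.075) or wash replicate 2 (adjusted p = 0.0541), and NARS2 lost it within prefix 1 (0.308, adjusted p = 0.114) and TARS2 with gene-body counts (0.411, adjusted p = 0.0746).

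The cytosolic partners of these enzymes were not called between the fractions over all 4 libraries of each. IARS1 was at 519, 492, 521 and 492 CPM in the cytoplasm and 417, 569, 536 and 522 in the wash, with overlapping groups (log2 fold change 0.015, edgeR adjusted p = 0.936). LARS1 was at 308, 324, 338 and 381 in the cytoplasm and 420, 392, 349 and 387 in the wash, also overlapping (log2 fold change 0.20, edgeR adjusted p = 0.146). Within prefix 1 alone the wash libraries of LARS1 lay above the cytoplasm, and the gene was called higher (0.358, edgeR adjusted p = 0.0347). The partner of AARS2, AARS1, was not called either (log2 fold change 0.33), but it rose by 0.33 when replicate numbers were blocked (edgeR adjusted p = 0.0125).

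**Figure D1:**
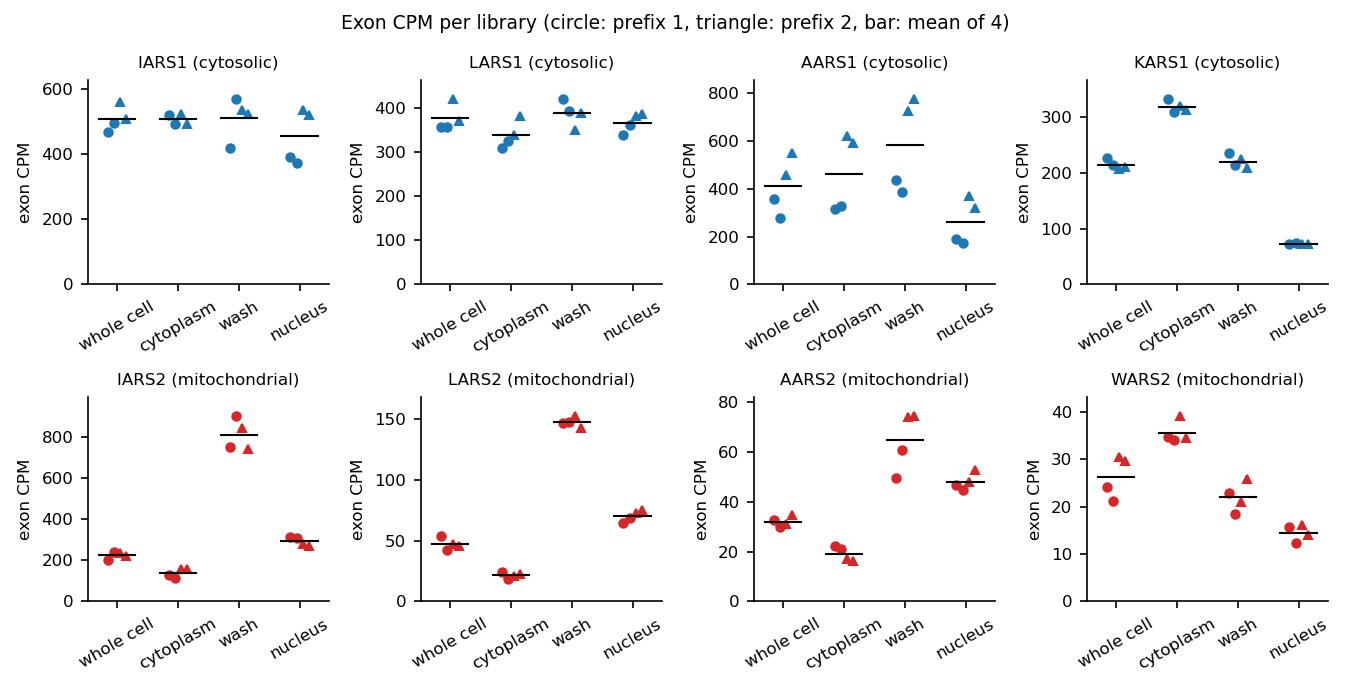
Exon CPM (y axis, from 0) of 8 synthetase mRNAs in each depleted library of whole cells, cytoplasm, nuclear wash and nucleus; circles are libraries of prefix 1, triangles those of prefix 2 and bars the mean of 4. IARS2 and LARS2 were highest in the wash, at 744 to 905 and 142 to 152 CPM, while the libraries of IARS1 and LARS1 overlapped between wash and cytoplasm.

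The mitochondrial members lower in the wash were WARS2, PARS2 and RARS2. WARS2 was at 22.8, 18.4, 21.0 and 25.8 CPM in the wash, 1.62-fold below the cytoplasm (log2 fold change -0.70, SE 0.141, edgeR adjusted p = 0.000444). PARS2 was at 8.46, 7.78, 11.2 and 7.16 in the wash, a log2 fold change of -0.63 (SE 0.202, edgeR adjusted p = 0.0154). RARS2 went from 74.6, 78.6, 62.9 and 66.8 in the cytoplasm to 42.7, 50.1, 45.8 and 57.5, a log2 fold change of -0.52 (SE 0.128, edgeR adjusted p = 0.00232). All 3 had wash libraries below every cytoplasmic one. Within prefix 2 the calls for PARS2 (-0.567, adjusted p = 0.0659) and RARS2 (-0.333, adjusted p = 0.0729) were lost, and with gene-body counts that for RARS2 (-0.125, adjusted p = 0.429).

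Of the cytosolic members KARS1 fell most, to 236, 213, 224 and 208 CPM in the wash (log2 fold change -0.53, SE 0.0935, edgeR adjusted p = 0.000105). YARS1 (tyrosine) went from 362, 354, 427 and 413 in the cytoplasm to 211, 233, 336 and 331, a log2 fold change of -0.48 (SE 0.165, edgeR adjusted p = 0.0214). FARSA was at 103, 99.3, 109 and 116 in the wash, a log2 fold change of -0.36 (SE 0.134, edgeR adjusted p = 0.0346). For each of these 3 the wash lay below every cytoplasmic library. FARSA lost its call without cytoplasm replicate 1 or 2 or wash replicate 1 or 2 (adjusted p = 0.0609 to 0.0806) and within prefix 2 (-0.214, adjusted p = 0.267), and YARS1 without cytoplasm replicate 3 or wash replicate 1 or 2 (adjusted p = 0.0566 to 0.0698), so that 1 cytosolic member remained called lower without either wash library. Blocking on the replicate number, RARS1 fell by 0.27 as well (edgeR adjusted p = 0.0266), and within prefix 1 FARSB was called lower (-0.343, edgeR adjusted p = 0.0488).

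Other RNAs moved with this comparison. HSPA5, which encodes a chaperone of the endoplasmic reticulum, was at 1004 to 1477 CPM in the wash and 270 to 406 in the cytoplasm (log2 fold change 2.05). Of the markers of other cell types, epithelial EPCAM had a log2 fold change of 1.36 and fibroblast COL1A2 of 2.54, both genes of secreted or membrane proteins, and the summed markers are given above. MALAT1 had a log2 fold change of 1.90. The part of these RNAs in the result for the synthetases was not tested.

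**Figure D2:**
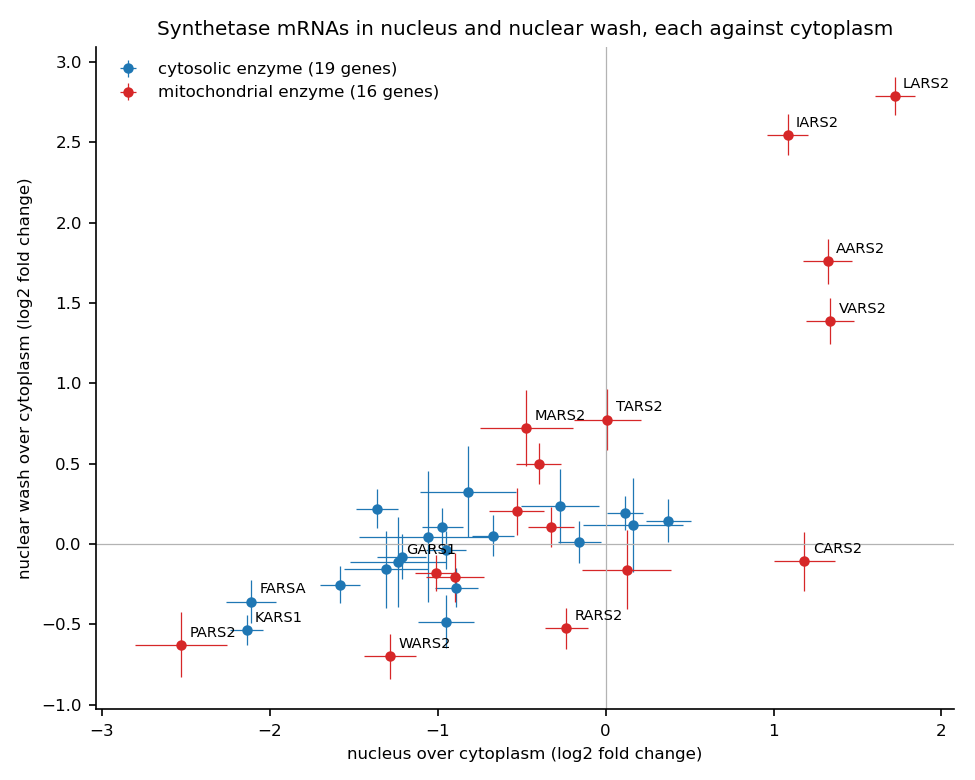
Log2 fold change of nucleus over cytoplasm (x axis) and of nuclear wash over cytoplasm (y axis) for the 35 synthetase mRNAs, cytosolic in blue and mitochondrial in red, with lines of 1 SE; both axes share the cytoplasm libraries. LARS2, IARS2, AARS2 and VARS2 lie at the upper right, with wash folds of 1.39 to 2.79, and KARS1, FARSA and PARS2 at the lower left.

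In wash against nucleus 26 of 35 members were called higher, 1 lower and 8 not. Of the cytosolic members 14 of 19 were higher in the wash and 0 lower, with a median log2 fold change of 1.08, and of the mitochondrial members 12 of 16 were higher and 1 lower, with a median of 0.71. Over all genes 36.7% were called higher and 35.4% lower, 72.1% in all, with a median of 0.060. At an unadjusted p under 0.05 edgeR had 0 cytosolic members lower, and DESeq2 called 1 at its adjusted p. Groups did not overlap for 11 members of each class, against 62.4% of all genes.

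FARSA, whose levels are given above, was 3.38-fold higher in the wash (log2 fold change 1.75, SE 0.148, edgeR adjusted p = 2e-09), and KARS1 was 3.04-fold higher (log2 fold change 1.604, SE 0.0991, edgeR adjusted p = 2.89e-11). VARS1 was at 418, 370, 375 and 455 CPM in the wash and 130, 132, 138 and 140 in the nucleus (log2 fold change 1.58, SE 0.127, edgeR adjusted p = 9.45e-10). The libraries of these 3 did not overlap. Among mitochondrial members PARS2 was 3.73-fold higher in the wash (log2 fold change 1.90, SE 0.289, edgeR adjusted p = 6.56e-06). IARS2 was at 316, 312, 278 and 271 CPM in the nucleus, 2.76-fold below the wash (log2 fold change 1.46, SE 0.124, edgeR adjusted p = 2.1e-09). MARS2 was at 26.9, 25.7, 18.9 and 20.2 in the wash and 12.6, 14.4, 6.53 and 6.23 in the nucleus (log2 fold change 1.20, SE 0.272, edgeR adjusted p = 0.000557), so both fractions had lower values in prefix 2.

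CARS2 was the member called higher in the nucleus than in the wash over all 4 libraries of each. It was at 12.9, 9.81, 10.5 and 14.7 CPM in the wash and 33.6, 23.0, 32.9 and 26.5 in the nucleus (log2 fold change -1.29, SE 0.186, edgeR adjusted p = 3.28e-06). Its cytoplasm values of 13.9, 14.5, 12.6 and 10.2 overlapped with those of the wash. VARS2, higher in both than in the cytoplasm, was not called between them (log2 fold change 0.052, SE 0.14, edgeR adjusted p = 0.75). With gene-body counts VARS2 was called higher in the wash than in the nucleus (0.983). Blocking on the replicate number, MARS1 rose by 0.50 (edgeR adjusted p = 0.00054) and RARS2 fell by 0.29 (edgeR adjusted p = 0.0402). MARS1 was also called higher within each prefix (0.461 and 0.529) and IARS1 within prefix 1 (0.379, edgeR adjusted p = 0.0374), while RARS2 was lower within prefix 1 (-0.447, edgeR adjusted p = 0.0217) and HARS1 within prefix 2 (-0.355, edgeR adjusted p = 0.0478). Within prefix 1 the calls for AARS2 (0.292, adjusted p = 0.115), FARS2 (0.376, adjusted p = 0.129) and HARS2 (0.376, adjusted p = 0.0936) were lost. DESeq2 dropped the calls of WARS1 (0.954), YARS1 (0.331), AARS2 (0.308) and HARS2 (0.296). It called RARS2 (-0.422, DESeq2 adjusted p = 0.00393) and HARS1 (-0.363, DESeq2 adjusted p = 0.0209) lower in the wash. With only the libraries of wash and nucleus in the fit, edgeR gained and lost the same calls. Gene-body counts dropped those of WARS1 (0.855), YARS1 (0.232) and YARS2 (0.196). WARS1 and YARS1 also lost theirs without single libraries of either fraction.

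GARS1 and KARS1, the genes that serve both compartments, are counted here among the 19 cytosolic members. GARS1 was at 472, 436, 817 and 781 CPM in the cytoplasm, 430, 360, 736 and 788 in the wash and 184, 178, 334 and 367 in the nucleus. It was lower in the nucleus (log2 fold change -1.24, SE 0.286, edgeR adjusted p = 0.000522), higher in the wash than in the nucleus (1.13, SE 0.286, edgeR adjusted p = 0.00149) and not called between wash and cytoplasm (-0.11, SE 0.28, edgeR adjusted p = 0.769). Each fraction held a pair of lower libraries, those of prefix 1, and a pair of higher ones, those of prefix 2. KARS1 showed no such split and fell in both comparisons with the cytoplasm, as given above. Neither gene was called higher in the wash than in the cytoplasm. Mitochondrial PARS2 and WARS2 were called in the same directions as KARS1 in each comparison among the fractions.

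Several cytosolic enzymes form a multisynthetase complex with scaffold proteins. Of the 7 members that belong to it (EPRS1, IARS1, KARS1, LARS1, MARS1, QARS1 and RARS1), 4 fell in the nucleus against the cytoplasm and 0 rose, with a median log2 fold change of -0.67, where 37.5% of all genes fell and 39.3% rose. With the replicate block MARS1 also fell, as given above. Only KARS1 of these was called between wash and cytoplasm. The scaffold genes AIMP1, AIMP2 and EEF1E1 were all lower in the nucleus, AIMP1 at -0.88 and AIMP2 at -0.85 on the log2 scale, and EEF1E1 fell in the wash (-0.61).

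Coding length ran alongside the folds of the mitochondrial members. Their coding sequences ranged from 1080 to 3279 bases with a median of 1647, and those of the cytosolic members from 1413 to 4536 with a median of 2169. The mitochondrial genes with the longest coding sequences were VARS2 (3279 bases), IARS2 (3036), AARS2 (2955) and LARS2 (2709), and these had the highest folds of wash over cytoplasm. The next longest, TARS2 with 2154 bases, came next in fold, and WARS2, the shortest with 1080 bases, was lowest. The order was not strict, since NARS2 (1431 bases) had a log2 fold change of 0.50 and the longer RARS2 (1734 bases) one of -0.52. Across the 16 mitochondrial members Spearman's rho of coding length with the log2 fold change was 0.793 for wash over cytoplasm, 0.815 for nucleus over cytoplasm and -0.0191 for wash over nucleus. Over 11310 protein-coding genes it was 0.356, 0.396 and -0.274. These are correlations across genes measured in the same libraries, and genes are not independent replicates.

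The 19 cytosolic members had values of 0.57 and 0.391 for wash and nucleus over cytoplasm, but their folds in the wash spanned only -0.53 to 0.33 although EPRS1 (4536 bases), VARS1, IARS1 and LARS1 are longer than any mitochondrial member. With total exon length, cytosolic members had 0.73 for nucleus over cytoplasm and -0.788 for wash over nucleus, against 0.36 and -0.303 over the 11310 protein-coding genes. Mitochondrial members had 0.538 and -0.238. The number of arginine codons among the opening 40 had a rho of -0.0343 with wash over cytoplasm in the mitochondrial class and 0.115 in the cytosolic class.

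**Figure D3:**
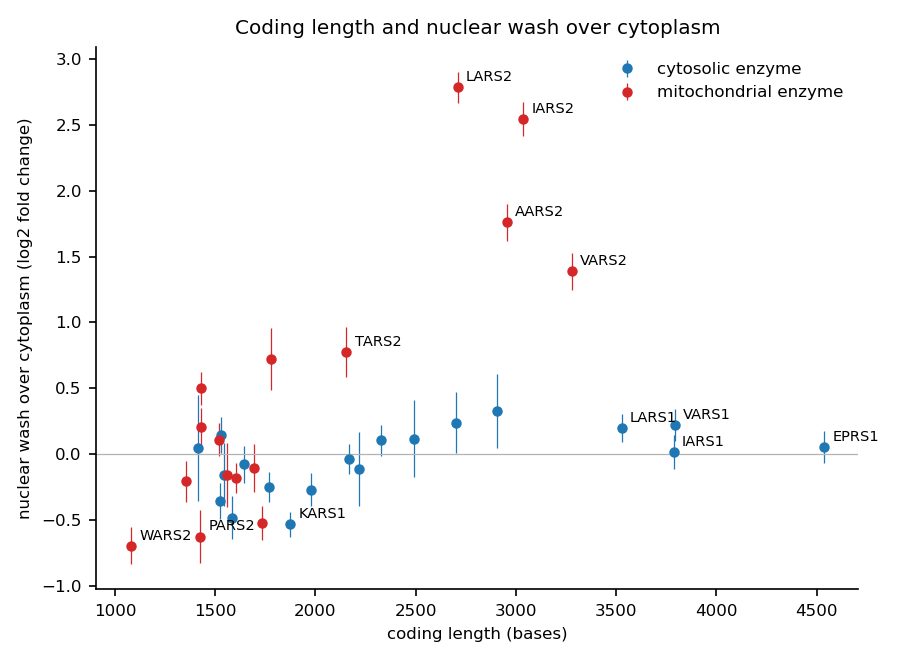
Coding length in bases (x axis) and log2 fold change of nuclear wash over cytoplasm (y axis, lines of 1 SE) for the 35 synthetase mRNAs. LARS2, AARS2, IARS2 and VARS2, from 2709 to 3279 bases, lie at 1.39 to 2.79, and the cytosolic genes from 3528 to 4536 bases lie between 0.015 and 0.22.

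Intronic reads help to separate spliced from unspliced RNA, although other genes that lie within an intron can affect them. They were taken as gene-body minus exon counts, and the share of intronic counts in gene-body counts was read per library. Over 19 cytosolic genes the median share was 5.88% ± 0.513 in cytoplasm, 10.9% ± 0.588 in wash, 29.2% ± 4.09 in whole cells and 54.5% ± 3.09 in nucleus (SD over 4 libraries). Over 13 mitochondrial genes it was 15.97% ± 3.16, 32.5% ± 5.49, 67.0% ± 3.13 and 80.0% ± 3.05. The undepleted wash had 8.31% ± 1.16 and 23.2% ± 3.47 (n = 3).

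**Figure D4:**
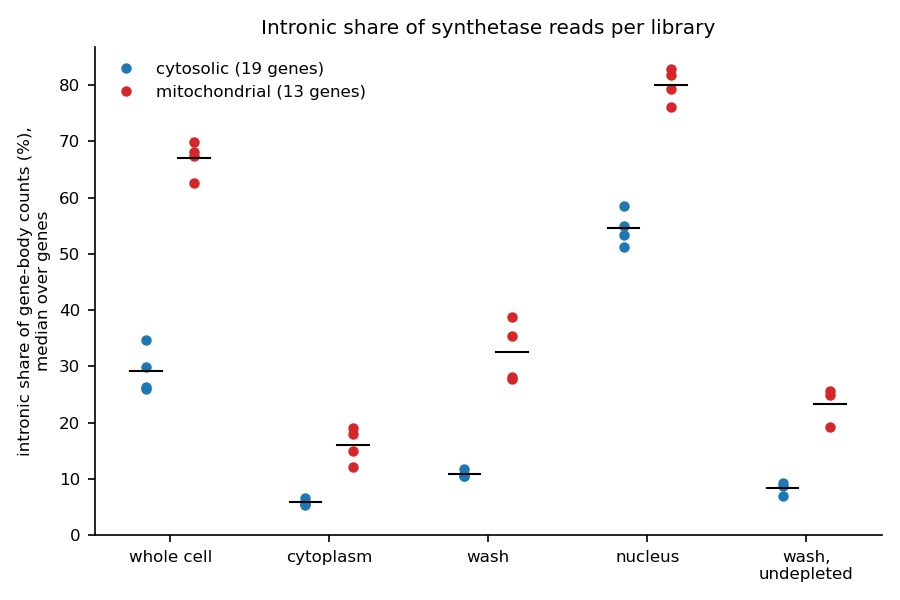
Intronic share of gene-body counts in percent (y axis, from 0; median over the genes of a class) in each library of the 5 groups, cytosolic genes in blue and mitochondrial genes in red, with bars at the mean. In each group the mitochondrial libraries lie above the cytosolic ones, from 5.88 against 15.97% in the cytoplasm to 54.5 against 80.0% in the nucleus.

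The ratio of intronic to exon counts was tested for 31 members with limma on the log2 scale. QARS1, PARS2 and SARS2 had too few intronic counts, and MARS2 has no annotated intron. For HARS2, gene-body counts fell below exon counts in some cytoplasm and wash libraries, and the intronic count was set to 0 there. Its changes, 6.47 in nucleus over cytoplasm and -6.155 in wash over nucleus, were the largest among the members and rest on that floor. In nucleus against cytoplasm all 18 cytosolic and 13 mitochondrial members rose, as did 89.1% of 10259 genes, with 91.4% called in either direction. Wash against nucleus had all 31 lower, as were 84.8% of genes, while 1.92% were higher (86.7% in all). Wash against cytoplasm was mixed. There the ratio rose for 15 of 18 cytosolic members and 0 fell, while among mitochondrial members 6 of 13 rose and 4 fell, in a comparison where 71% of genes rose and 2.57% fell (73.5% in all).

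The 4 whose ratio fell were those with the largest rise of exon counts in the wash. IARS2 had intronic shares of 10.5, 12.8, 7.7 and 8.7% in the cytoplasm and 3.5, 3.4, 2.4 and 2.4% in the wash, against 35.9, 33.4, 34.8 and 31.8% in the nucleus. Every wash library was below every other depleted one. The log2 change of its ratio was -1.87 (SE 0.205, limma adjusted p = 1.44e-07). LARS2 went from 64.0, 69.1, 52.7 and 55.0% in the cytoplasm to 35.4, 38.8, 27.8 and 28.025% in the wash, with a log2 change of -1.67 (SE 0.254, limma adjusted p = 7.33e-06). VARS2 had -1.17 (SE 0.404, limma adjusted p = 0.0136) and lost its call within prefix 1 (-0.725, adjusted p = 0.215) and without wash replicate 3 (adjusted p = 0.0651). Exons of VARS2 overlap a gene on the same strand by 1858 bases, so its ratio is uncertain. AARS2 had -0.70 (SE 0.302, limma adjusted p = 0.0437) and turned to 0.279 within prefix 1, and its call was also lost without cytoplasm replicate 1, 3 or 4 or wash replicate 3 or 4 (adjusted p = 0.0515 to 0.178). Exon counts enter both the ratio and the fold of exon counts, so these values are not independent of that fold.

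Other mitochondrial genes went the opposite way. WARS2, whose exon counts fell in the wash, had intronic shares of 18.98, 17.99, 9.52 and 11.6% in the cytoplasm and 49.6, 58.0, 43.3 and 35.1% in the wash, a log2 change of its ratio of 2.37. The genes RBMX2P3 and RPS3AP12 overlap WARS2 on the same strand outside its exons, and their part in this value was not tested. FARS2, a gene with 568149 bases from start to end, had 59.4, 60.3, 44.6 and 44.1% in the cytoplasm and 89.0, 86.6, 70.9 and 74.1% in the wash, with a log2 change of 1.99. RARS2 had 1.94. For all 3 the wash lay above the cytoplasm in every library, and the change exceeded the median of all genes, 1.26. The gene-body fold of FARS2 between wash and cytoplasm was 0.823 on the log2 scale, against -0.21 with exon counts.

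Against whole cells the cytoplasm had 7 of 19 cytosolic members higher and 0 lower, and 3 of 16 mitochondrial members higher and 5 lower, among 22.3% higher and 27.6% lower of all genes (50% in all). At an unadjusted p under 0.05 edgeR also had 0 cytosolic members lower, as did DESeq2 at its adjusted p. IARS2, at 204, 241, 236 and 221 CPM in whole cells, was lower in the cytoplasm by a log2 fold change of -0.70 (edgeR adjusted p = 0.000104). LARS2, at 53.5, 42.5, 47.3 and 45.5, was lower by -1.14 (edgeR adjusted p = 2.37e-07), with no overlap for either gene. Without whole-cell replicate 2, 4 cytosolic members were called higher. KARS1, at 227, 215, 207 and 211, was higher in the cytoplasm (0.57, edgeR adjusted p = 5.55e-05).

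The nucleus had 1 cytosolic member higher and 12 lower than whole cells, and 5 mitochondrial members higher and 4 lower, among 25.9% and 29% of all genes (54.9% in all). The wash had 2 cytosolic members higher than whole cells, QARS1 and VARS1, and 0 lower, and 8 mitochondrial members higher and 2 lower, among 14.6% and 19.7% of all genes (34.4% in all). No cytosolic member was lower at an unadjusted p under 0.05 with edgeR or at an adjusted p with DESeq2. Blocking on the replicate number, 6 cytosolic members were higher in the wash than in whole cells. IARS2 at 1.85 and LARS2 at 1.65 again had the largest log2 fold changes. Whole-cell libraries are shared by these 3 comparisons.

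The wash made without rRNA depletion was compared with the depleted wash. Of 11627 genes tested in the 7 wash libraries, 11.1% were called, 7.75% higher and 3.35% lower in the undepleted wash, and 3 of 35 members were among them. That share of members is close to the share of all genes, and the count depended on the fit, as given below. VARS1 was at 418, 445 and 435 CPM without depletion and 309, 266, 265 and 329 with it (log2 fold change 0.57, SE 0.15, edgeR adjusted p = 0.0338). FARSB was at 102, 69.3 and 59.99 against 118, 119, 119 and 133 (-0.67, SE 0.193, edgeR adjusted p = 0.047). WARS2 was at 6.80, 9.28 and 8.73 against 16.9, 13.2, 14.9 and 18.6 (-0.91, SE 0.264, edgeR adjusted p = 0.0476). These groups did not overlap, but the calls rested on single libraries. Leaving out wash replicate 2, 3 or 4 left 1, 0 and 1 members called, and leaving out undepleted replicate 2 or 3 left 0 members and 468 or 459 genes. A block on the column prefix, without the depleted library of prefix 1A, raised the count to 10 members and 3786 genes. IARS2 and LARS2, high in the depleted wash, were not called (log2 fold changes -0.46 and 0.28).

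Some members differed between the prefixes within a fraction. That test, of 2 libraries against 2, was added after the values had been seen. In whole cells 5 of 19 cytosolic members were higher in prefix 2 and 0 lower, while 0 of 16 mitochondrial members were higher and 1 was lower. Among all genes 1.54% were higher and 0.728% lower (2.26% in all). The 5 were WARS1 (tryptophan), CARS1, GARS1, AARS1 and MARS1. WARS1 was at 179 and 192 CPM in prefix 1 and 374 and 377 in prefix 2 (log2 fold change 1.02, SE 0.117, edgeR adjusted p = 3.9e-06). AARS1 was at 356 and 279, then 457 and 550 (0.67, SE 0.133, edgeR adjusted p = 0.00444). CARS1 was at 90.04 and 80.8, then 147 and 148 (0.80, SE 0.142, edgeR adjusted p = 0.00127). Prefix 2 lay above prefix 1 in each of these. GARS1 had 0.72 and MARS1 0.65. MARS2, the mitochondrial methionine gene, was lower by a log2 fold change of -0.86 (SE 0.223, edgeR adjusted p = 0.039).

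The other fractions gave similar counts, but their libraries carry the same prefixes and same-numbered libraries deviated together, so they are not separate repeats. Cytosolic members higher in prefix 2 numbered 6 in cytoplasm, 7 in wash and 8 in nucleus, with 0 lower in each, among 3.38%, 6.53% and 2.5% of all genes called higher (1.65%, 6.22% and 3.48% lower, and 5.03%, 12.8% and 5.98% in all). WARS1, CARS1, GARS1 and AARS1 were called in all 4 fractions. SARS1 joined them in cytoplasm, wash and nucleus. In the wash TARS2 (0.69) and AARS2 (0.41) were the mitochondrial members called higher, and in the nucleus MARS2 was lower (-1.08). WARS1 had the highest value among the members in each fraction, 1.06 in cytoplasm, 1.38 in wash and 1.74 in nucleus. It lost its call in nucleus against cytoplasm without cytoplasm replicate 3 or 4 or nucleus replicate 1 or 2 (adjusted p = 0.0625 to 0.1).

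The amino acid response list holds ATF4, a transcription factor translated when uncharged tRNA accumulates, and its target genes. All 15 genes of the list were higher in prefix 2 in whole cells, cytoplasm and wash, and 14 of 15 in the nucleus. In whole cells their median log2 fold change was 1.22, against -0.035 over all genes. ASNS, asparagine synthetase, was at 252 and 277 CPM in prefix 1 and 592 and 639 in prefix 2. CHAC1, a glutathione-degrading enzyme, was at 1.13 and 0.997, then 13.8 and 15.0. SESN2, a stress-induced regulator of growth signalling, was at 19.2 and 17.7, then 105 and 117. The list's lowest value was that of SHMT2, 0.52. Whether prefix marks a culture, a day or a library preparation cannot be told from the labels, and with 2 libraries on each side the comparison is between these libraries.

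**Figure D5:**
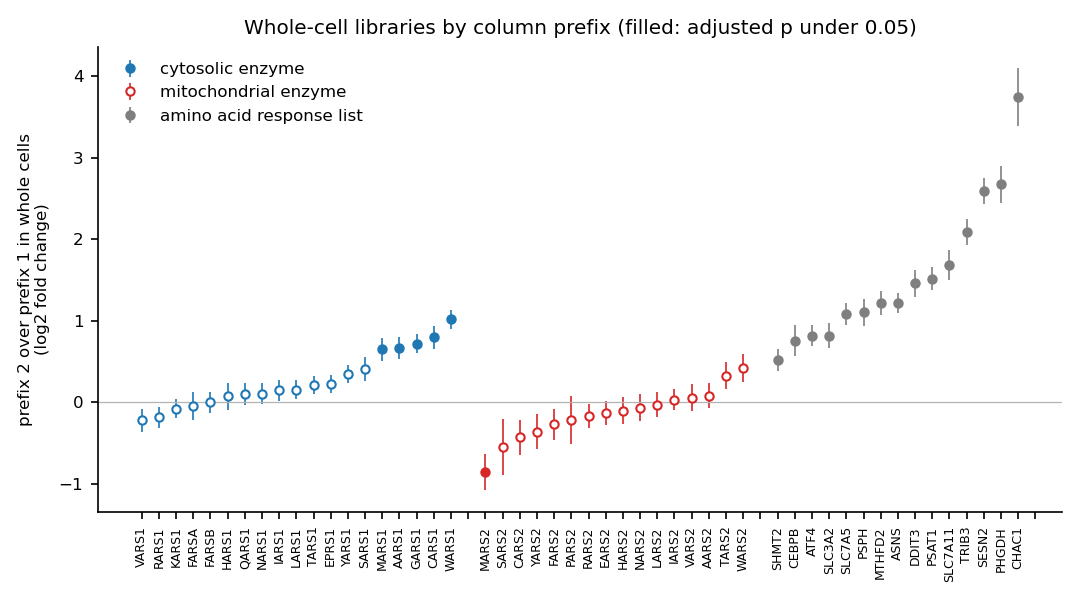
Log2 fold change of prefix 2 over prefix 1 in whole cells (y axis, lines of 1 SE) for each cytosolic member, mitochondrial member and gene of the amino acid response list, with filled points at an edgeR adjusted p under 0.05. All 15 genes of the response list and 5 cytosolic members are called higher, and MARS2 is the called mitochondrial member, at -0.86.

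Promoters of these genes were searched for TGATGNAAN, a core of the element bound by ATF4 with C/EBP proteins, on both strands in 300 bases around the annotated start (RefSeq, GRCh38.p14). It matched 1002 of 27305 promoters, or 3.67%, and was found in 6 of 16 cytosolic members with an entry (37.5%), 1 of 14 mitochondrial members and 3 of 12 genes of the response list. The cytosolic matches were AARS1, CARS1, IARS1, MARS1, NARS1 and TARS1. The windows below show the match in capitals, on the gene's strand, in 3 members that were higher in prefix 2 and in 2 genes of the response list; GTTGCATCA is TGATGCAAC read from the opposite strand.
AARS1, chr16:70289666-70289714 (minus strand): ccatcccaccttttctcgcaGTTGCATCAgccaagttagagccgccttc
CARS1, chr11:3057418-3057446 (minus strand): gcgcgacttccggggcggcgGTTGCATCA
MARS1, chr12:57488043-57488071 (plus strand): gaagcgggaggccggttccgGTTGCATCA
ASNS, chr7:97872448-97872496 (minus strand): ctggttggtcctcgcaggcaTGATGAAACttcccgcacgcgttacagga
CHAC1, chr15:40953241-40953289 (plus strand): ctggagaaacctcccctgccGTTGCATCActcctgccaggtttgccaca
A match describes the letters in the window and is not evidence of binding. IARS1, TARS1 and NARS1 hold the letters too but were not called between prefixes in whole cells, and WARS1 and GARS1, which were called, are not among the matches.

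The folds between fractions were tested for a dependence on the prefix with an interaction term. AARS2 was the single member called, in wash against cytoplasm, with a difference of 0.79 (SE 0.207, edgeR adjusted p = 0.0485) and folds of 1.36 in prefix 1 and 2.15 in prefix 2, among 1.82% of all genes called, 0.226% higher and 1.59% lower in prefix 2. In nucleus against cytoplasm and wash against nucleus 0 members were called by edgeR at an adjusted p under 0.05, among 0.408% (0.0314% higher, 0.376% lower) and 0.157% of genes (0.0376% higher, 0.119% lower). The rise of AARS2 in the wash passed within each prefix.

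Genes around the synthetases in the same pathway were compared from lists written by function. Their counts stand against the shares of all genes given above, 39.3% higher and 37.5% lower in nucleus over cytoplasm and 22.8% and 21.4% in wash over cytoplasm. The cytosolic elongation factors, which carry charged tRNA to the ribosome, were lower in the nucleus for 4 of 4 tested, EEF1A1 by a log2 fold change of -3.41 and EEF2 by -3.23, and lower in the wash for all 4 (EEF1A1 -1.09, EEF1B2 -0.99). EEF1A1 has near-identical copies elsewhere in the genome, so its counts are uncertain. Of 10 mitochondrial translation factors, 3 were higher and 3 lower in the nucleus than in the cytoplasm, shares below those of all genes, with TUFM at -2.08 and GFM1 at 1.44. In the wash 2 were higher, the elongation factors GFM1 at 2.21 and GFM2 at 1.05, and 4 lower.

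The enzymes that amidate or formylate mitochondrial tRNA had 3 of 4 lower in the nucleus, GATC at -1.13 and QRSL1 at -0.73, and 2 lower in the wash, GATC at -0.79 and MTFMT at -0.58. Of 13 genes of tRNA processing and export, 8 were lower and 3 higher in the nucleus, led by HSD17B10 at -2.86 and CLP1 at -1.69, where 37.5% of all genes were lower and 39.3% higher. In the wash 4 were lower and 1 higher, against 21.4% and 22.8% of all genes, led by TSEN15 at -0.90 and ELAC2 at 0.74. Trans-editing factors, which remove wrong amino acids from tRNA, split in the nucleus into AARSD1 at 4.17 and DTD1 at -2.22, and in the wash into AARSD1 at 1.84 and DTD2 at -1.25. The selenocysteine charging genes SEPSECS (-0.69) and PSTK (-0.53) were both lower in the wash than in the nucleus. The amino acid response list had 1 gene higher and 9 lower in the nucleus, led by ATF4 at -2.70 and CHAC1 at -2.41, and 2 higher and 1 lower in the wash against the cytoplasm, SLC3A2 at 1.33, SLC7A11 at 1.26 and ATF4 at -1.06.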

How the data were processed

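RNA-seq of 19 K562 libraries was analysed from a pair of deposited tables, one of exon counts and one of gene-body counts per gene, both raw and not normalized. Per the submitters' processing notes, cutadapt 2.5, STAR 2.7.0a and featureCounts 1.6.2 were used with the genome build hg38; for the annotation release, the strand setting and the treatment of shared reads, nothing is stated in the sources used. RNA was extracted with Trizol LS, yeast spike-in RNAs were added and a SMARTer stranded total RNA kit was used, per the labels' protocols. 11 spike-in transcripts were left out of library sizes, and the amount added per sample is not in the labels. 0 count columns were left unused. Of the 58051 identifiers, 57447 were found in GENCODE release 29.

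Exon counts were tested with edgeR 4.0.16 (R 4.3.3; quasi-likelihood, TMM, filterByExpr), with 16 depleted libraries in 1 fit and 7 wash libraries in another, and p-values were adjusted by Benjamini-Hochberg over all 15940 or 11627 genes at a threshold of 0.05. The SE of a log2 fold change is its size over the root of the F statistic. CPM values carry the TMM factors. The log2 ratio of intronic to exon counts (pseudocount 1, mean of at least 10 intronic counts, 10259 genes) was tested with limma 3.58.1. Scripts were tested on simulated data. Counts of reads limit precision, most for PARS2 and SARS2, and PCR copies cannot be separated from molecules.

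Replicate numbers follow the column prefixes (1A, 1B, 2B, 2C as 1 to 4). Same-numbered libraries of different fractions deviated together, with a correlation over 0.1 in 24 of 24 pairs (0.104 to 0.379). The mean between different numbers was -0.0695. Deviations from a group's mean cancel out within the group, so this mean largely follows from the same-number values and is no separate comparison. Of the 16 depleted libraries, 10 correlated best with their own number. The blocked fit is an alternative, given where it changes a call. Full values go, per main contrast, to the 3 called members of each class with the largest fold in each direction if their mean reaches 5 CPM, and to GARS1 and KARS1. From each other list at most 2 are named. IARS1, LARS1, AARS1, the genes that differed between prefixes and some members whose call changed under an alternative were named outside that rule, after their values were seen. The members and lists were chosen with earlier results of these data known. Sequences of coding starts were given in place of protein stretches.

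Alternatives were other scalings (RLE, none, spike-ins), DESeq2 1.42.0, no filter on low counts, gene-body counts, the replicate block, each prefix alone, only both groups' libraries, no mitochondrially encoded or rRNA genes, and leaving out each library.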

Additional observations from a re-analysis of the deposited data

Results flagged for a closer look

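Each member's CPM in each depleted group was screened for a library far from the other 3, by the gap to the nearest other library over the group's range. Of 140 combinations 2 exceeded Dixon's 95% critical value, where chance gives about 1 in 20. HARS2, the mitochondrial histidine enzyme, was at 20.52 CPM in whole-cell replicate 3 and at 23.93 to 24.57 in the other whole-cell libraries. WARS2, the mitochondrial tryptophan enzyme, was at 39.12 CPM in cytoplasm replicate 3 and at 33.95 to 34.71 in the others.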

How the results depend on the processing

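Taken relative to the shift of the median gene, all 105 values of members in the 3 main contrasts kept direction and side of the threshold under RLE factors, no factor and spike-in sizes. Such scalings move all genes of a comparison by nearly the same amount. Removing the median shift therefore largely fixes this agreement in advance, and it is no check of the calls. Leaving out 1 library kept 800 of 840 and 721 of 736 of the member values for exon counts and intron ratio. DESeq2 kept 94 of 105 and the replicate block 99. The cause of the changes below was not tested, apart from the scaling itself.

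Spike-in sizes moved the median of all genes by -0.603 in nucleus over cytoplasm, -3.10 in wash over cytoplasm and -2.47 in wash over nucleus on the log2 scale. The shift in wash over cytoplasm is larger than the highest fold of a member there, 2.79 for LARS2. All 35 members were then called in wash over cytoplasm (14869 genes), wash over whole cell (15940 genes) and nucleus over whole cell (13771 genes), and 34 in cytoplasm over whole cell (14700 genes). Medians became -3.02 (mitochondrial) in wash over cytoplasm, -1.59 and -1.85 (cytosolic and mitochondrial) in wash over nucleus, -0.928 (cytosolic) in cytoplasm over whole cell, and -4.28 and -4.01 in wash over whole cell. With no factor the mitochondrial median turned to 0.333 in nucleus over cytoplasm and 0.21 in nucleus over whole cell, the cytosolic one to -0.176 in wash over whole cell, and 17 members were called in wash over nucleus and 9 in cytoplasm over whole cell.

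With gene-body counts the mitochondrial median was 0.317 in nucleus over cytoplasm and 0.0692 in nucleus over whole cell. Members called were 27 in cytoplasm over whole cell (12049 genes) and 20 in wash over whole cell. Nucleus over cytoplasm turned for HARS1 (-0.156), LARS1 (-0.306), FARS2 (2.72), NARS2 (1.48), RARS2 (0.828), TARS2 (-0.782), VARS2 (-0.0295) and WARS2 (0.769). Wash over cytoplasm turned for FARS2 (0.823) and YARS2 (-0.441), and wash over nucleus for FARS2 (-1.9), LARS2 (-0.206), NARS2 (-0.973) and WARS2 (-1.14). Calls were gained for 10 member values in the main contrasts. Among these, FARSB, NARS1, RARS1, TARS1 and EARS2 were called lower in wash over cytoplasm. Within prefix 1, wash over whole cell had 3485 genes called, and the intron ratio of AARS2 in wash over cytoplasm was 0.279.

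For the undepleted wash 3999 genes and 16 members were called with no factor, 471 and 1 with spike-ins, 1987 genes with no filter, 1 member with gene-body counts, and 3786 genes and 10 members with a replicate block by column prefix. Leaving out single libraries gave 459 to 1492 genes and 0 to 3 members there. In wash over nucleus it gave a cytosolic median of 0.844 to 1.12. As a log2 ratio of summed counts, the difference between cytosolic and mitochondrial members was -1.39 in wash over cytoplasm, -0.173 in wash over nucleus, 0.47 in cytoplasm over whole cell, -0.748 in nucleus over whole cell and -0.921 in wash over whole cell. The replicate block changed no other call of a member in the main contrasts than those given in the results.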
